A study of Mus musculus with 10 samples.

Results

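The 36 genes described here belong to the interferon-stimulated genes and to the genes of class I antigen presentation. They were chosen by name rather than by a measured value, though with earlier results of these data known. All 36 were found among the 35275 genes of the count table. By role they were 5 transcription factors, 3 viral RNA sensors, 14 antiviral effectors, ISG15 with 5 post-translational modifiers or proteases around it, 3 other interferon-induced proteins and 5 genes of class I antigen presentation. RNA was sequenced from C2C12 cells, a mouse myoblast line that divides in serum-rich growth medium and, once the serum is lowered, stops cycling and forms multinucleated myotubes that express the genes of muscle. The first group was 5 libraries of cells in growth medium before differentiation. The second was 5 libraries of cells on day 6 after the change to horse serum medium, where the day comes from the paper and the labels name only a differentiating stage. Neither group had an added interferon, infection or drug in its labels, and all 10 libraries came from the same cell line. Whether these came from separate cultures is not in the labels, and p-values measure the spread between libraries.

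Library totals were 16288532 to 21622527 counts before differentiation and 15367909 to 20509280 counts on day 6. The summed level of 8 skeletal muscle markers was 904 to 992 CPM (counts per 1000000 of the scaled library total) before differentiation and 11283 to 16389 CPM on day 6, whereas 4 proliferation markers summed to 1641 to 1810 CPM and to 90.1 to 130 CPM. The 12 leukocyte markers summed to 0.888 to 3.23 CPM before differentiation and 1.83 to 2.94 CPM on day 6, and Adgre1, Tyrobp, Cd3e and Nkg7 had no count in any library. The 5 endothelial markers summed to 0.118 to 0.808 CPM and to 0.480 to 1.22 CPM. Among the day 6 libraries, replicates 1 and 2 stood apart from replicates 3, 4 and 5 on the first principal component, which held 55.5% of the variance within day 6, and the calls that changed without either set are given beside the genes or with the split at the end.

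Interferons are secreted proteins that signal through cell surface receptors and the kinases Jak1, Jak2 and Tyk2. Type I interferons activate a complex that holds Stat2 and Irf9 and binds the interferon-stimulated response element (ISRE) in the promoters of its target genes, while type II interferon acts through the gamma-activated site (GAS). The targets include sensors of viral RNA, proteins that block viral replication, and the machinery that loads peptides onto class I molecules, and many are also expressed at a low basal level in cells that have met no virus.

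Promoters were searched for the ISRE letters GAAANNGAAA on both strands (TTTCNNTTTC in reverse), in windows from 250 bases before to 50 bases after the start site in the RefSeq promoter table (build GRCm38.p6). Of the 36 genes, 28 had such a window, and 14 of these (50%) held the letters, compared with 3.99% of the 27025 genes in that table. The GAS letters TTCNNNGAA, which read the same on both strands, were found for 7 of the 28 genes (25%) and for 9.55% of all genes. The 250 bases before the start site are printed for 5 members whose RNA behaved unlike, read in the direction of the gene, with the ISRE letters in capitals. Ifit1 (chr19:34640639-34640888, plus strand) and Ifit3 (chr19:34583279-34583528, plus strand) are neighbours in the same cluster and each held 2 matches, which began 104 and 85 bases before the start site of Ifit1 and 156 and 122 bases before that of Ifit3.
Ifit1: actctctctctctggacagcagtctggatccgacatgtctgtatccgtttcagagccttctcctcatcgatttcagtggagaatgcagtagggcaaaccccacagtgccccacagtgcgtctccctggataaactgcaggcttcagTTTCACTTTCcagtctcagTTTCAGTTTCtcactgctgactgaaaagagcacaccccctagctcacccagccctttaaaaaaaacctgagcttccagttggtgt
Ifit3: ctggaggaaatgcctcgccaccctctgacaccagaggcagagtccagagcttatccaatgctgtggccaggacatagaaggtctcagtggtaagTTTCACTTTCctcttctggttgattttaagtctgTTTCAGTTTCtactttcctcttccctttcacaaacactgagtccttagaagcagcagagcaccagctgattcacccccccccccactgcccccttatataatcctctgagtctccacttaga
Gbp2 (chr3:142620413-142620662, plus strand) held 1 match that began 59 bases before the start site. Its neighbour Gbp3 had 2 windows, of which only 1 held the letters. That window (chr3:142559794-142560043, plus strand) held 2 overlapping matches, the first 45 bases before its start site.
Gbp2: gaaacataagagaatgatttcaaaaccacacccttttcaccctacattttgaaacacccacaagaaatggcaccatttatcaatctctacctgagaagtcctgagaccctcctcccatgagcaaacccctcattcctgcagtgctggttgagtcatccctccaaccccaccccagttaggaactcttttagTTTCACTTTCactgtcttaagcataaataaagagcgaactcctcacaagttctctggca
Gbp3: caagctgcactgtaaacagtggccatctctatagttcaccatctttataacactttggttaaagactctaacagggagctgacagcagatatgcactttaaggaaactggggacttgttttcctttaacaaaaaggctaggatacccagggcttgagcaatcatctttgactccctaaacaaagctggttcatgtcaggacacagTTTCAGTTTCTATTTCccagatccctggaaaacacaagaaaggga
The window of Isg15 (chr4:156200819-156201068, minus strand) held 3 overlapping matches, which began 78 to 66 bases before the start site and were the most found for any of the 36 genes.
Isg15: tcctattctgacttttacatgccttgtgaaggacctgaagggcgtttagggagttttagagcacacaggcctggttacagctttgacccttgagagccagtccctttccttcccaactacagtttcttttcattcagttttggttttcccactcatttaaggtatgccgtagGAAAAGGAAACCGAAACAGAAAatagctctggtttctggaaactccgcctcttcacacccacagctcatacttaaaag
Shorter stretches are given for 3 further members, the signal transducer Stat2 (chr10:128270251-128270310, plus strand), the class I light chain B2m (chr2:122147523-122147582, plus strand) and the antiviral membrane protein Bst2 (chr8:71537562-71537627, minus strand), the last with 2 overlapping matches.
Stat2: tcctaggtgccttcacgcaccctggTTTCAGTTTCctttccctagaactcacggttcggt
B2m: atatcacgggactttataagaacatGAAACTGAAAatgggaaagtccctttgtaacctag
Bst2: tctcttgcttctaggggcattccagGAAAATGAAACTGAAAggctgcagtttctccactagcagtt

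Levels between genes were compared per gene length, in the deposited fragments per kilobase of gene and per unit of library size (FPKM). B2m, the light chain of class I molecules, was the most abundant of the 36 genes in both groups, with a mean level of 252 ± 19.8 FPKM before differentiation and 295 ± 20.1 FPKM on day 6 (SD, n = 5 each). The heavy chains were far lower, with H2-D1 at 11.5 ± 1.54 and 13.9 ± 2.16 FPKM and H2-K1 at 12.3 ± 1.08 and 11.7 ± 1.06 FPKM. Irf1 and Irf3, transcription factors of the same family, were at 13.2 ± 0.969 and 10.9 ± 0.435 FPKM before differentiation, so that the levels of H2-K1, H2-D1, Irf1 and Irf3 lay close to each other there. On day 6 Bst2 was at 10.6 ± 0.888 FPKM and Stat2 at 9.30 ± 1.01 FPKM, in the range of Irf1 at 9.36 ± 1.43 FPKM. At the other end, Oas1a had no count in any library, and Oas2, Mx1, Mx2, Rsad2, Usp18 and Cxcl10 had mean levels from 0 to 0.333 FPKM in either group.

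**Figure D1:**
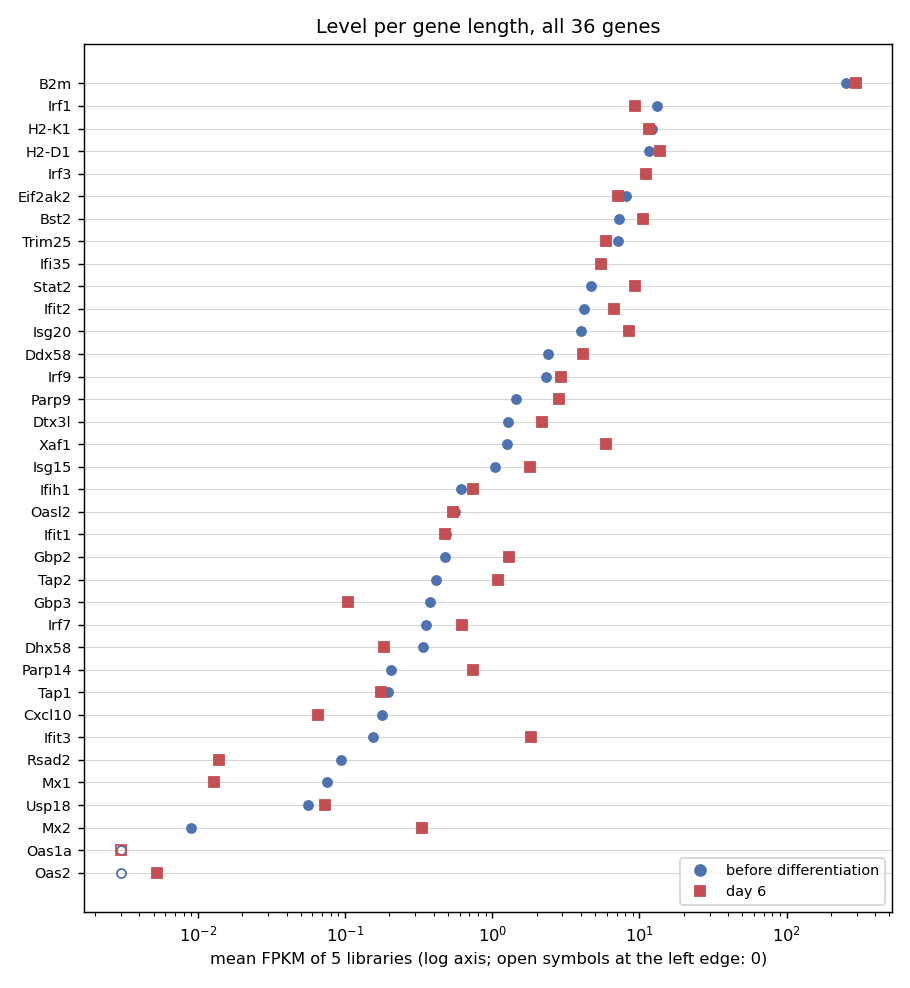
Mean level per gene length (FPKM, log axis) of all 36 genes before differentiation (circles) and on day 6 (squares), the mean of 5 libraries each and open symbols at the left edge for a level of 0. B2m stands alone at 252 and 295 FPKM, all other means are at or below 13.9 FPKM, and the widest gaps among genes with counts in both groups are those of Ifit3 and Mx2.

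The change from before differentiation to day 6 was tested on the counts with edgeR's quasi-likelihood test over all 13085 genes that passed its filter on low counts, with p-values adjusted by the Benjamini-Hochberg method and a threshold of 0.05. Of the 36 genes, 29 passed the filter, and 16 of these (55.2%) rose while 4 (13.8%) fell. Over all genes in the fit 40.1% rose and 39.7% fell, so that calls in either direction were common throughout the table. The members' median log2 fold change was 0.37, compared with 0.01 over all genes tested. By more than 1 on the log2 scale 7 members rose and 1 fell, 24.1% and 3.45% of the 29, where 18.1% and 14.7% of all genes did so. The groups had no overlap between libraries for 15 of the 29 members (51.7%), of which 13 were higher and 2 lower on day 6, and for 69.1% of all genes. Ifit3, Gbp3 and Dhx58 passed the filter mainly through the group in which they were higher, which was day 6 for Ifit3 and before differentiation for the other 2, and these counts cover only the members that passed. The remaining 7, which were Oas1a, Oas2, Mx1, Mx2, Rsad2, Usp18 and Cxcl10, are described by their counts below.

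**Figure D2:**
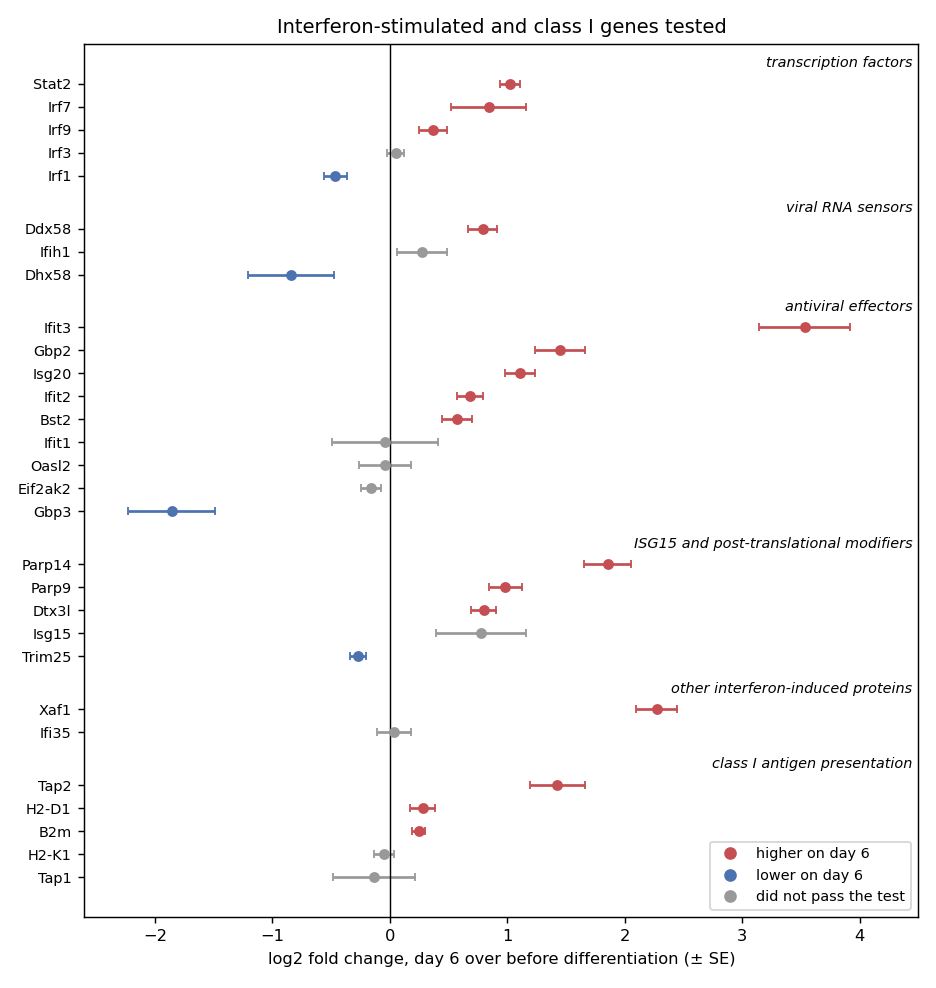
Log2 fold change, day 6 over before differentiation, of the 29 members tested, in groups by role, with bars of 1 standard error and colours for the call. Changes range from -1.86 for Gbp3 to 3.53 for Ifit3, and each role group holds genes that passed the test and genes that did not.

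Among the transcription factors, Stat2, Irf7 and Irf9 rose while Irf1 fell. Stat2, a signal transducer below the type I receptor, was measured at 19.0, 19.99, 20.2, 23.4 and 19.2 CPM in replicates 1 to 5 before differentiation and at 44.7, 47.1, 35.5, 38.2 and 40.7 CPM on day 6. Every day 6 library was above every earlier library, and Stat2 rose 2.03-fold (log2 fold change 1.02 ± 0.09, SE, adjusted p = 3.97e-09). Irf9, the DNA-binding part of the same complex, was at 8.77, 10.2, 6.57, 9.19 and 9.65 CPM and then at 10.2, 11.3, 11.6, 11.05 and 13.1 CPM. The lowest day 6 library of Irf9 was just above the highest earlier one, and the rise was small (log2 fold change 0.37 ± 0.12, adjusted p = 0.01). Reads of Irf9 and Rnf31 cannot be fully told apart, since the gene spans share 123 bases on the same strand, and without day 6 replicates 3, 4 and 5 the call for Irf9 was lost (adjusted p = 0.0545).

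Irf1, a factor best known as a target of type II interferon and an activator of class I genes, gave 30.6, 27.6, 26.1, 27.0 and 28.3 CPM before differentiation and 23.1, 23.9, 19.3, 16.4 and 18.3 CPM on day 6. Its groups did not overlap, and it fell (log2 fold change -0.46 ± 0.10, adjusted p = 0.000265). Irf7, which amplifies type I interferon production, was scarce, with 0.877, 0.593, 0.709, 1.03 and 0.711 CPM before differentiation and 0.841, 1.92, 1.34, 2.01 and 0.904 CPM on day 6. Only replicates 2, 3 and 4 of day 6 lay above the earlier libraries. The rise of Irf7 (log2 fold change 0.84 ± 0.32, adjusted p = 0.0217) was lost without replicate 2 before differentiation (adjusted p = 0.0542), without day 6 replicate 2 (0.0626) or 4 (0.0691), and with counts thinned to the smallest library (0.0553). Irf3, which is activated by phosphorylation after viral sensing, was at 20.9 to 22.5 CPM before differentiation and 21.2 to 25.1 CPM on day 6 and did not pass the test (log2 fold change 0.05 ± 0.07, adjusted p = 0.510).

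Of the 3 sensors of viral RNA in the cytoplasm, Ddx58 rose, Dhx58 fell and Ifih1 did not pass the test. Ddx58, which encodes RIG-I, was at 9.54, 9.05, 9.64, 9.50 and 8.65 CPM before differentiation and at 12.8, 12.9, 18.5, 18.6 and 17.8 CPM on day 6. All day 6 libraries were higher, replicates 1 and 2 by less than the other 3, and Ddx58 rose 1.73-fold (log2 fold change 0.79 ± 0.12, adjusted p = 9.38e-06). Ifih1, which encodes MDA5, had overlapping groups at 2.37 to 4.35 and 2.46 to 5.42 CPM and did not pass the test (log2 fold change 0.28 ± 0.21, adjusted p = 0.239). Without day 6 replicates 1 and 2 it did (log2 fold change 0.52, adjusted p = 0.0188), and without replicates 3, 4 and 5 the value was -0.07. Dhx58, which encodes LGP2, a related helicase that lacks the signalling domain of the other 2, was at 1.10, 1.02, 0.425, 0.726 and 0.770 CPM before differentiation and 0.445, 0.587, 0.305, 0.305 and 0.581 CPM on day 6. Replicate 3 before differentiation lay within the day 6 range, and the fall of Dhx58 (log2 fold change -0.84 ± 0.37, adjusted p = 0.0439) rested on few counts. It was lost with DESeq2 (adjusted p = 0.0819), without a filter on low counts (0.107) and without any of replicates 4 and 5 before differentiation or 1, 3 and 4 of day 6 (0.0532 to 0.0964), and an antisense gene covers 2637 of its bases on the opposite strand.

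The 3 members of the Ifit family, whose proteins recognise viral RNA and hinder its translation, lie side by side on chromosome 19 and changed unequally. Ifit3 was at 0.384, 0.593, 0.236, 0.121 and 0 CPM before differentiation and at 3.07, 2.99, 3.05, 3.66 and 3.36 CPM on day 6. It was nearly absent before differentiation, with 25 counts over 5 libraries, and uniform on day 6, with 280 counts. Ifit3 had the largest change of the members tested (log2 fold change 3.53 ± 0.39, adjusted p = 1.44e-07), and 41.1% of the windows of 75 bases in its transcripts occur also in Ifit3b, which was not analysed here, so that reads from there map to both and were left out where only uniquely mapped reads were counted.

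Ifit2, per gene length the most abundant of the 3 at 4.21 and 6.68 FPKM, was at 17.8, 14.4, 14.5, 17.5 and 15.7 CPM before differentiation and 19.0, 23.9, 26.3, 29.8 and 29.4 CPM on day 6. The lowest day 6 library was replicate 1, which was still above the earlier ones, and the log2 fold change was 0.68 ± 0.11 (adjusted p = 2.74e-05). Ifit1 was at 1.10, 1.62, 1.09, 0.907 and 1.66 CPM and then at 0.297, 0.480, 2.74, 1.53 and 1.29 CPM, with 6 and 9 counts in day 6 replicates 1 and 2 and 20 to 45 counts in the other 3. The day 6 libraries thus lay on both sides of the earlier ones, and Ifit1 did not pass the test (log2 fold change -0.04 ± 0.45, adjusted p = 0.942). With day 6 replicates 1 and 2 as the only day 6 libraries Ifit1 was called lower (log2 fold change -1.66, adjusted p = 0.00440), and with replicates 3, 4 and 5 alone the value was 0.56 (adjusted p = 0.121).

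**Figure D3:**
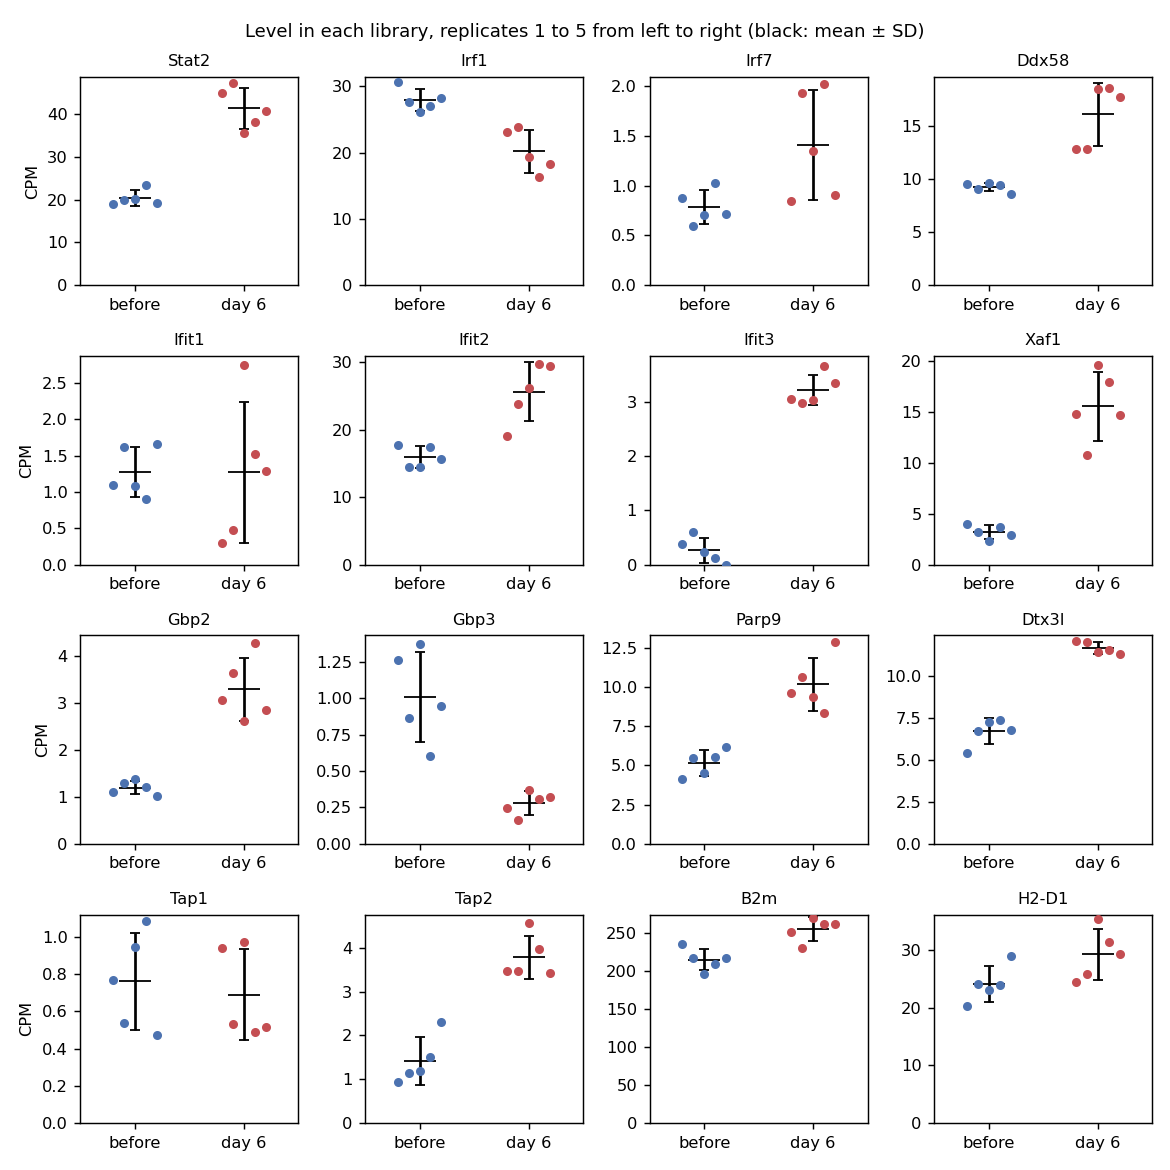
Level in CPM of 16 members in each library, replicates 1 to 5 from left to right within each group, with the mean and SD in black and each panel on its own axis from 0. Ifit3 and Xaf1 separate the groups widely, Ifit1, Irf7 and Tap1 overlap, and Ddx58 and Ifit1 are lower in day 6 replicates 1 and 2 than in replicates 3, 4 and 5.

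Of the other antiviral effectors tested, Isg20, Bst2 and Gbp2 rose, Gbp3 fell, and Eif2ak2 and Oasl2 did not pass the test. Isg20, an RNA exonuclease, was at 4.93, 4.15, 3.40, 4.54 and 4.502 CPM before differentiation and 10.1, 9.61, 8.72, 8.30 and 9.62 CPM on day 6. Its groups were clearly separate, with a log2 fold change of 1.11 ± 0.13 (adjusted p = 2.71e-07). Bst2, or tetherin, which holds budding virus at the cell surface, went from 4.44, 5.55, 4.96, 5.75 and 6.75 CPM to 7.62, 7.95, 8.23, 7.87 and 9.17 CPM. Bst2 rose in every day 6 library, by a log2 fold change of 0.57 ± 0.13 (adjusted p = 0.000554).

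Gbp2 and Gbp3 encode guanylate-binding proteins, GTPases that act against intracellular pathogens, and they moved in opposite directions. Gbp2 was at 1.10, 1.29, 1.37, 1.21 and 1.01 CPM before differentiation and at 3.07, 3.63, 2.62, 4.27 and 2.84 CPM on day 6, a rise of 1.45 ± 0.21 on the log2 scale with no overlap (adjusted p = 6.48e-06). Gbp3 was at 1.26, 0.862, 1.37, 0.605 and 0.948 CPM and then at 0.247, 0.160, 0.366, 0.305 and 0.323 CPM. Every day 6 library had 3 to 6 counts of Gbp3, against 10 to 29 before, and it had the largest fall among the members tested (log2 fold change -1.86 ± 0.37, adjusted p = 0.000178). The span of Gbp3 lies within that of Gbp5 on the same strand, and Gbp5 rose (1.10 to 2.71 CPM, log2 fold change 1.28 ± 0.26, adjusted p = 0.000226), so that the count of reads shared between these 2 genes depends on the overlap setting, which is not given in the sources used here.

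Eif2ak2, which encodes the RNA-dependent kinase PKR, was per gene length the most abundant effector before differentiation (8.11 FPKM), with 31.3 to 37.9 CPM before differentiation and 26.6 to 36.1 CPM on day 6. It did not pass the test (log2 fold change -0.16 ± 0.09, adjusted p = 0.102), although without day 6 replicate 4 it was called lower (-0.21, adjusted p = 0.0302). Oasl2, a relative of the oligoadenylate synthetases, had overlapping groups at 1.48 to 2.00 and 1.34 to 2.08 CPM (log2 fold change -0.04 ± 0.22, adjusted p = 0.876).

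Of ISG15 and the genes that modify proteins, the ADP-ribosyltransferases changed most. Parp14 was at 2.03, 1.24, 1.51, 1.33 and 1.42 CPM before differentiation and 4.06, 4.64, 6.16, 6.29 and 6.33 CPM on day 6. All 5 day 6 libraries were at or above 4.06 CPM and the highest earlier library was at 2.03 CPM, with a log2 fold change of 1.85 ± 0.20 (adjusted p = 1.07e-07). Parp9 and Dtx3l, whose proteins form a complex that joins ADP-ribosylation to ubiquitin transfer, rose together. Parp9 went from 4.11, 5.44, 4.54, 5.50 and 6.16 CPM to 9.64, 10.6, 9.39, 8.36 and 12.8 CPM (log2 fold change 0.98 ± 0.14, adjusted p = 5.18e-06), and Dtx3l from 5.43, 6.73, 7.28, 7.38 and 6.81 CPM to 12.1, 12.1, 11.5, 11.6 and 11.4 CPM (log2 fold change 0.80 ± 0.11, adjusted p = 1.80e-06). For all 3 genes the groups did not overlap, and Dtx3l had the narrower spread on day 6. The spans of Parp9 and Dtx3l share 682 bases on opposite strands, and the antisense gene Gm15564 overlaps 5854 bases of Parp9. Counts there depend on the strand setting of the counting, which is not given in the sources used here.

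Isg15 itself, the ubiquitin-like protein that gives the group its name, was low and variable. Its levels were 0.493, 0.700, 0.898, 0.786 and 1.07 CPM before differentiation and 0.396, 1.12, 2.38, 1.65 and 1.36 CPM on day 6. Day 6 replicate 1 was the lowest of all 10 libraries while the other 4 day 6 libraries were above all earlier ones, and the gene did not pass the test (log2 fold change 0.78 ± 0.38, adjusted p = 0.0701). Without that library it did (log2 fold change 1.04, adjusted p = 0.00681), and without day 6 replicates 3, 4 and 5 the value was -0.03. Trim25, a ubiquitin ligase that acts on RIG-I, was at 37.1 to 42.0 CPM before differentiation and 30.2 to 37.5 CPM on day 6, and it fell (log2 fold change -0.27 ± 0.07, adjusted p = 0.00145).

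Xaf1, an interferon-induced protein that promotes apoptosis by binding the inhibitor XIAP, had the largest rise of the members tested after Ifit3. It was at 4.001, 3.23, 2.27, 3.69 and 2.90 CPM before differentiation and at 14.7, 10.8, 19.6, 17.9 and 14.7 CPM on day 6. The lowest day 6 library was above the highest earlier one by more than the whole range before differentiation, and Xaf1 rose 4.84-fold (log2 fold change 2.27 ± 0.17, adjusted p = 1.64e-09). Ifi35, a leucine zipper protein of the response, had overlapping groups at 5.29 to 9.48 and 6.78 to 8.23 CPM (log2 fold change 0.03 ± 0.14, adjusted p = 0.828).

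Among the members of class I antigen presentation, B2m, H2-D1 and H2-K1 changed little and Tap2 changed more. B2m was at 236, 218, 197, 209.9 and 217 CPM before differentiation and at 252, 231, 271, 262 and 263 CPM on day 6. Day 6 replicate 2 lay below replicate 1 of the earlier group and all other day 6 libraries were above it, and B2m rose by a small amount (log2 fold change 0.25 ± 0.06, adjusted p = 0.000586). The heavy chain H2-D1 was at 20.3, 24.2, 23.1, 24.01 and 29.02 CPM and then at 24.4, 25.9, 35.5, 31.6 and 29.4 CPM. Its groups overlapped, and the rise (log2 fold change 0.28 ± 0.11, adjusted p = 0.0233) was lost without replicate 1 (adjusted p = 0.0735) or 3 (0.0563) before differentiation and without day 6 replicate 3 (0.0708) or 4 (0.0510). The other heavy chain, H2-K1, was at 20.6 to 25.5 CPM and at 19.97 to 24.4 CPM and did not pass the test (log2 fold change -0.05 ± 0.08, adjusted p = 0.579). H2 genes vary between mouse strains, and 3.10% of the windows of 75 bases in H2-K1 and 5.40% of those in H2-D1 are shared with other H2 genes, so that their counts against the mm10 alleles are uncertain.

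Tap1 and Tap2 encode the 2 chains of the transporter that brings peptides to class I molecules. Tap2 was at 0.932, 1.13, 1.18, 1.51 and 2.31 CPM before differentiation and at 3.46, 3.47, 4.57, 3.97 and 3.42 CPM on day 6, a rise of 1.42 ± 0.23 on the log2 scale with no overlap (adjusted p = 2.15e-05). Tap1 was at 0.767, 0.539, 0.945, 1.09 and 0.474 CPM and then at 0.940, 0.534, 0.975, 0.488 and 0.516 CPM. The groups of Tap1 overlapped almost fully at 8 to 20 counts per library, and it did not pass the test (log2 fold change -0.13 ± 0.35, adjusted p = 0.730). On the opposite strand 2 annotated genes overlap Tap2, Patl2 covers the whole 5398 bases of B2m and Art3 the whole 2252 bases of Cxcl10. Counts of these members may include reads of those genes, since the strand setting of the counting is not given in the sources used here.

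The 7 members below the filter included antiviral genes that rank among the strongest interferon targets in other settings. Mx2, a dynamin-like GTPase, had 2, 0, 0, 0 and 0 counts before differentiation and 41, 17, 11, 3 and 6 counts on day 6. Every day 6 library was above every earlier one, and the ratio of the summed levels was 40.9 (95% exact interval 10.9 to 343, for counting error only). Its relative Mx1 had 6, 5, 4, 4 and 4 counts and then 0, 3, 1, 0 and 0, with 3 of its 4 later counts in replicate 2. Rsad2, or viperin, an enzyme that makes an antiviral nucleotide, had 3, 6, 21, 4 and 4 counts before differentiation and 1, 1, 0, 1 and 2 on day 6, and 21 of its 38 earlier counts were in replicate 3. In these 3 genes the groups did not overlap, Mx2 being higher and Mx1 and Rsad2 lower on day 6. The groups did not overlap for 69.1% of all genes tested either, and this share was not computed for genes below the filter.

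Cxcl10, a chemokine that attracts T cells, had 6, 2, 9, 0 and 2 counts before differentiation and 0, 1, 5, 0 and 0 on day 6, with overlapping groups and 5 of its 6 later counts in replicate 3. Usp18, the protease that removes ISG15 from its targets, had 10 counts before differentiation and 11 on day 6. Oas2 had 2 counts in all, both in day 6 replicate 2, and Oas1a had none in any library, which allows up to 3 counts in either group. Of the windows of 75 bases in Oas1a transcripts, 47.6% occur also in another gene. Reads from there were left out where only uniquely mapped reads were counted, so the bound covers only the rest of Oas1a. In a fit with no filter on low counts edgeR called Mx2 higher (adjusted p = 1.85e-06) and Rsad2 and Mx1 lower (0.00402 and 0.0328), and did not call Oas2, Usp18 or Cxcl10 (0.209, 0.814 and 0.221). That fit called 6249 of 21797 genes higher and 5543 lower, so these calls are not read as particular to the members.

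Members that lie within 100 kb of each other were compared within libraries, where depth and scaling cancel, as the log2 ratio of their counts with 0.5 added to each. There were 9 such pairs with counts, each tested with an exact permutation test over the 10 libraries (two-sided, smallest possible p = 0.00794) and adjusted over the 9 pairs. Against Ifit1, Ifit3 gained 4.402 ± 0.98 (log2, ± SE), and against Ifit2 it gained 3.37 ± 0.78, both without overlap (exact permutation p = 0.00794, adjusted 0.0179). Ifit3 had no count in replicate 5 before differentiation, and leaving out 1 library gave gains of 3.61 to 4.79 over Ifit1 and 2.69 to 3.82 over Ifit2. The gain of Ifit2 over Ifit1 was 1.03 ± 0.52 and did not pass (exact permutation p = 0.0714, adjusted 0.0804). It was 2.07 with day 6 replicates 1 and 2 alone and 0.34 with replicates 3, 4 and 5 alone.

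Gbp3 lost 3.16 ± 0.34 to Gbp2 (change of the log2 ratio -3.16), and the ratio of Mx2 to Mx1 rose, again with no overlap (exact permutation p = 0.00794, adjusted 0.0179 for each). No size is given for the rise of Mx2 over Mx1, since in 7 of the 10 libraries 1 of these genes had no count and the ratio rests on the added 0.5. Tap2 gained 1.60 ± 0.41 over Tap1 (exact permutation p = 0.0238, adjusted 0.0357), with replicate 5 before differentiation inside the day 6 range. The start sites of Parp9 and Dtx3l are 681 bases apart on opposite strands of chromosome 16, and their spans overlap there. The ratio of Dtx3l to Parp9 changed by -0.17 ± 0.14 (exact permutation p = 0.278, adjusted 0.278), and reads of the overlap may bear on it. Parp14, in the same neighbourhood, gained 1.04 ± 0.24 over Dtx3l and 0.87 ± 0.27 over Parp9 (exact permutation p = 0.0159 and 0.0317, adjusted 0.0286 and 0.0408). Thus 7 of the 9 pairs changed their ratio, and the pairs that did not were Dtx3l with Parp9 and Ifit2 with Ifit1. Several pairs share a gene, and the share among other neighbouring genes was not computed. Since 79.8% of all genes tested were called, the count of pairs is not read as particular to the members.

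**Figure D4:**
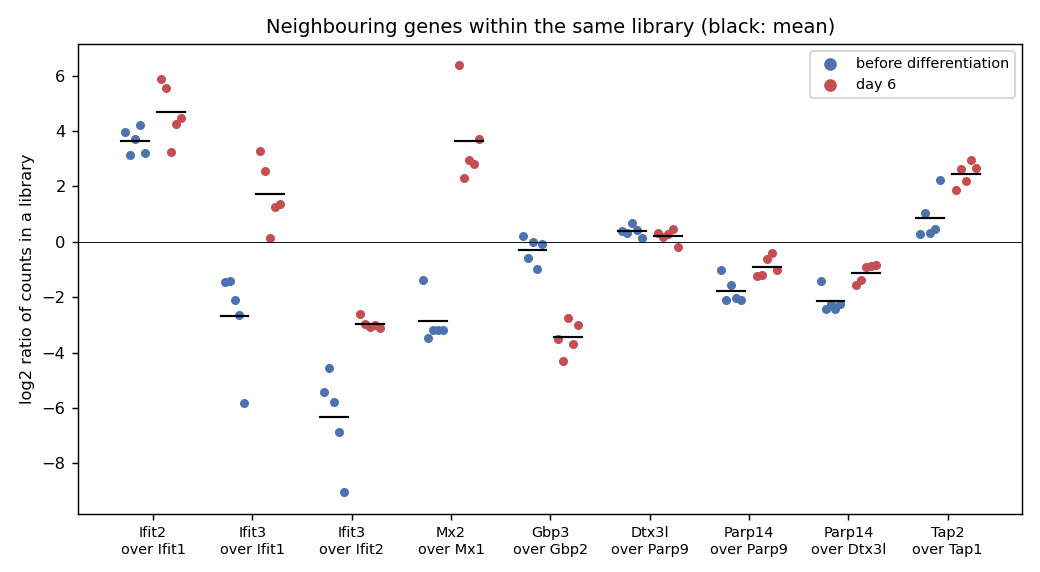
Log2 ratio of the counts of neighbouring members in each library, before differentiation and on day 6, with the mean as a black line. The ratios are not corrected for gene length, so only the shift between groups is read. It is 4.402 for Ifit3 over Ifit1 and -0.17 for Dtx3l over Parp9, and for Mx2 over Mx1 the positions of 7 of the 10 libraries are set by the 0.5 added to a count of 0.

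The ISRE letters were found in members of every call. They were present in 6 of 13 risen members with a window (Stat2, Ddx58, Ifit3, Bst2, Gbp2 and B2m), in 1 of 3 that fell (Gbp3), in 4 of 9 that did not pass the test (Ifih1, Eif2ak2, Ifit1 and Isg15) and in 3 of 3 below the filter (Oas1a, Rsad2 and Cxcl10). The neighbours printed above are examples, since Ifit1 and Ifit3 each have 2 matches and Gbp2 and Gbp3 have 1 and 2. Xaf1 and Dtx3l, both of which rose, have no match in their windows, which says only that these letters are not there. Of the GAS matches, 3 were in members that rose (Ifit2, Isg20 and Bst2), 1 was in Irf1, which fell, 2 were in members that did not pass (Eif2ak2 and Ifi35) and 1 was in Oas1a.

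Further genes of the pathway were taken from lists written by role. Of 141 listed, 138 were in the table and 89 passed the filter, of which 31 (34.8%) rose and 35 (39.3%) fell, near the 40.1% and 39.7% of all genes. The interferons themselves were almost without counts. Ifna1, Ifna2, Ifna4, Ifna5, Ifnb1, Ifnk, Ifnl2 and Ifnl3 had none in any library, and Ifne had 1 in each group. Ifng, the type II interferon, had no count in the earlier libraries and 7, 0, 2, 3 and 4 counts in the later ones. The groups thus overlapped at day 6 replicate 2. With a floor of 3 counts for the earlier group the ratio of the summed levels was 5.59, which leaves out the error of the later counts. The summed leukocyte markers given above overlapped between the groups and were mostly Cd68 (mean 1.87 and 1.203 CPM). Itgam, an integrin of myeloid cells, had no count before differentiation and 11, 28, 2, 16 and 9 counts on day 6, and the part of other cells in the counts of Ifng or of the members was not tested.

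Of the receptor chains, Ifngr2, the signalling chain for type II interferon, was at 24.2 to 31.6 CPM before differentiation and 49.1 to 69.0 CPM on day 6 and rose (log2 fold change 1.03 ± 0.11, adjusted p = 4.74e-07). Its partner Ifngr1 did not pass the test (0.01 ± 0.06, adjusted p = 0.903). The type I chains changed slightly and in opposite directions, Ifnar1 by -0.18 ± 0.06 (adjusted p = 0.00844) and Ifnar2 by 0.27 ± 0.10 (adjusted p = 0.0234), and Il10rb, the shared chain for type III interferon, fell (-0.36 ± 0.11, adjusted p = 0.00630). The call of Ifnar2 was lost without replicate 4 before differentiation (adjusted p = 0.0737) or day 6 replicate 4 (0.0769). Without day 6 replicates 3, 4 and 5 the calls of Ifnar1 (adjusted p = 0.0566), Ifnar2 (0.262) and Il10rb (0.0882) were lost. Ifnlr1, the other type III chain, had 0 and 5 counts.

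Below the receptors 4 of 10 genes rose and 4 fell (40% each), near the 40.1% and 39.7% of all genes. Socs1, a feedback inhibitor of Jak kinases, fell from 11.3 to 1.61 CPM (-2.81 ± 0.14, adjusted p = 3.34e-12), while Stat3 rose from 82.3 to 249 CPM (1.60 ± 0.05, adjusted p = 8.25e-16) and Tyk2 from 26.3 to 45.8 CPM (0.80 ± 0.08, adjusted p = 2.01e-08). Jak1 fell by 0.32 on the log2 scale and the phosphatase gene Ptpn11 rose by 0.16. Of 18 tested genes on the list for the induction of interferon, 3 rose (16.7%) and 11 fell (61.1%), where 40.1% and 39.7% of all genes did so. Those that fell include Adar and Samhd1, which are known to restrain this induction (-0.71 and -0.70). The DNA sensor Mb21d1, or cGAS, fell from 17.6 to 3.60 CPM (-2.28 ± 0.11, adjusted p = 1.01e-12), the transcription factors Irf5, Nfkb1 and Rela fell by 1.61, 0.50 and 0.26, and the surface receptor Tlr2 rose by 2.23. Without day 6 replicates 3, 4 and 5 Irf5 was at -0.96 and its call was lost (adjusted p = 0.0721).

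Further interferon-stimulated genes were divided, with 15 of 38 tested higher (39.5%) and 13 lower (34.2%). Slfn9 fell by 3.57 and Rnf213, with the highest CPM of the list before differentiation, by 0.90 on the log2 scale. Ifi27l2a and Casp1 rose by 3.39 and 3.30 from few counts, 11 and 44 before differentiation against 116 and 419 on day 6. No earlier library of Ifi27l2a was above 0.363 CPM, so it passed the filter through day 6. Ifitm3 did not pass the test (-0.07, adjusted p = 0.590). The 2 sets of day 6 libraries gave Ifitm3 calls in opposite directions, 0.14 without replicates 1 and 2 (adjusted p = 0.0130) and -0.38 without replicates 3, 4 and 5 (adjusted p = 1.20e-06). Of 17 further class I genes tested, 6 rose (35.3%) and 5 fell (29.4%), compared with 40.1% and 39.7% of all genes. Nlrc5, the transactivator of class I genes, fell from 5.49 to 1.68 CPM (-1.72 ± 0.23, adjusted p = 1.87e-06), the nonclassical class I genes H2-T23 and H2-T24 rose by 1.63 and 1.15 (H2-T24 by 0.72 without day 6 replicates 1 and 2, where its call was lost with an adjusted p = 0.0549), and the chaperones Calr and Canx fell by 0.72 and 0.40. The immunoproteasome genes Psmb8 and Psmb9 had 4 and 5 counts before differentiation and 2 and 1 on day 6. Of 6 class II genes only H2-DMa was tested, and it rose (0.85 ± 0.21, adjusted p = 0.00134), while Ciita, the class II transactivator, had 7 counts before differentiation and 67 on day 6.

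**Figure D5:**
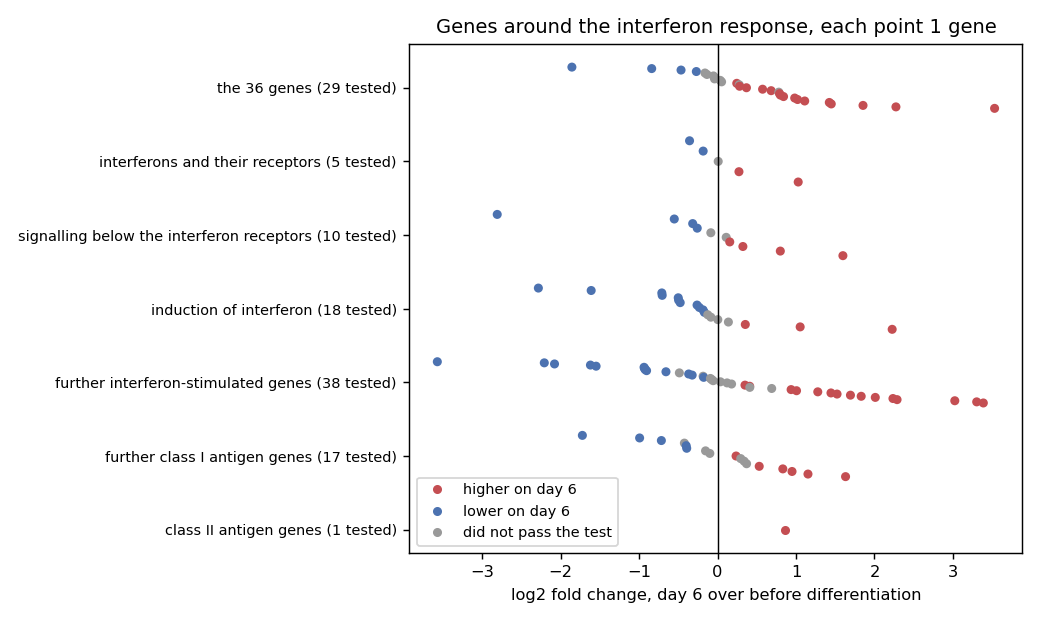
Log2 fold change, day 6 over before differentiation, of each tested member and of each tested gene in 6 further lists of the pathway, coloured by call. The 29 members lean to the right with 16 higher and 4 lower. The 18 genes of interferon induction lean to the left with 3 higher and 11 lower. The class II list has 1 tested gene, which was higher, and the other lists spread to both sides. Over all genes tested 40.1% were higher and 39.7% lower.

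Within day 6 some members followed the split between replicates 1 and 2 and replicates 3, 4 and 5. Both replicates 1 and 2 were below the other 3 for 10 of the 29 members tested, which were Ifih1, Ddx58, Eif2ak2, Ifit1, Ifit2, Gbp3, Isg15, Parp14, H2-D1 and B2m. Both were above for 3, which were Stat2, Irf1 and Dtx3l. Over all genes tested 22.2% were below and 22.7% above in this sense. With replicates 3, 4 and 5 as the day 6 group 18 of 29 members tested rose and 3 fell, with 5440 and 5208 of 13382 genes. With replicates 1 and 2 alone 30 members passed the filter, of which 14 rose and 5 fell, with 5380 and 5082 of 13817 genes. Ifit1, Isg15, Ifih1, H2-D1, Irf9, Irf7 and Eif2ak2 depended on this choice. Irf7 was not called without replicates 3, 4 and 5 (adjusted p = 0.0738) and neither was H2-D1 (0.365), while Eif2ak2 was then called lower (log2 fold change -0.29, adjusted p = 0.00464). Dhx58 was called with neither set (adjusted p = 0.0629 and 0.305), whereas Stat2, Ifit3, Xaf1, Parp14, Gbp2, Tap2 and Isg20 were called higher with either set.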

How the data were processed

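RNA of C2C12 cells was sequenced in 10 libraries, 5 before differentiation and 5 on day 6. The authors deposited 1 table with a raw count and an FPKM value per gene and library, and the length and coordinates of each gene. Per the submitters' processing notes, reads were trimmed with Trimmomatic (version not given), mapped with STAR 2.5 and counted with HTSeq 0.6.1 on mm10, and per the paper only uniquely mapped reads were counted. The annotation release, and how the counting treated strand and overlapping genes, are not given in the sources used here, and the labels name the NEBNext Ultra RNA kit where the paper names a directional version of it. The deposited counts are not scaled. The deposited FPKM values equal the count over gene length and library total (largest relative deviation 4.99e-12 over 172484 values) and served only to compare levels between genes.

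Counts were tested in R 4.3.3 with edgeR 4.0.16 (filterByExpr by condition, TMM factors, robust quasi-likelihood fit, condition as the only term), with Benjamini-Hochberg adjustment over the 13085 of 35275 genes kept. Standard errors were obtained by dividing the absolute log2 fold change by the root of its F statistic. CPM is counts per 1000000 of the scaled total. The test was run first on simulated data. Groups with no count were set to a floor of 3 counts, and ratios of sparse counts carry 95% exact intervals. Intervals and floors cover counting error only. Promoter sequences and windows are from RefSeq, build GRCm38.p6. Gene spans, overlaps and distances between neighbours come from the gene coordinates in the deposited table. The shares of transcript windows that occur also in another gene are from GENCODE vM21. That annotation is on the same build as the counts but may not be the one used for them.

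The members and lists were chosen with earlier results of these data known. The text names all 36 members, and of each pathway list the 3 largest changes among called genes that reached 1 CPM in their higher group, the 2 genes of highest mean CPM, and every interferon and receptor chain. A gene that this rule names and a cell type marker are not reported here. Gbp5 was added after its values were seen, because Gbp3 lies within it. Adar, Samhd1, Psmb8 and Psmb9 are also named outside this rule. Alternatives numbered 19, with 2 more chosen after seeing the data, which left out day 6 replicates 1 and 2 or 3, 4 and 5. Conditions and replicate numbers came from the labels, and no column of another sample was used.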

Additional observations from a re-analysis of the deposited data

Results flagged for a closer look

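In 69 groups of 5 libraries with counts, 5 had a library whose gap to the nearest other exceeded Dixon's limit of 0.71 of the group's range, and chance alone gives such a gap in about 1 of 20 groups. Stat2 before differentiation was at 23.4 CPM in replicate 4, with the next library at 20.2 CPM. Rsad2 before differentiation was at 0.992 CPM in replicate 3, with the next at 0.323 CPM. Cxcl10 on day 6 was at 0.305 CPM in replicate 3, with the next at 0.0534 CPM and 5 of 6 counts in that library. The other 2 rest on 2 counts each, Oas2 in day 6 replicate 2 at 0.107 CPM and Mx2 in replicate 1 before differentiation at 0.110 CPM, with 0 in the rest of the group.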

How the results depend on the processing

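Of the values of the 29 tested members under the alternatives, 524 kept their direction and side of the threshold, 20 lost a call, 6 gained one and 16 changed sign. The counts of 16 higher and 4 lower members became 11 and 2 where 5 CPM in 5 libraries was required, which left 17 members to test, and 7 higher and 1 lower by over 1 log2, where the further pathway genes gave 18 and 9. Leaving out each library in turn gave 14 to 17 higher and 3 to 4 lower members, and 31 to 36 higher and 33 to 38 lower pathway genes. DESeq2 1.42.0 gave 17 and 5 of 34 members tested, and no filter gave 17 and 5 of 35. Over all genes 4429 and 4427 of 10518 were higher and lower with 5 CPM required, and 2370 and 1925 of 13085 by over 1 log2. Leaving out 1 library gave 5182 to 5340 higher and 5056 to 5199 lower of 13194 to 13310 genes. DESeq2 gave 6074 and 5446 of 18117 genes, and no filter gave 6249 and 5543 of 21797. Dhx58 was not tested without replicate 1 or 2 before differentiation. With the replicate number as a block 16 members were higher and 4 lower, with 5165 and 5138 of all genes. Whether equal numbers pair the samples is not in the labels. In their deviations from the group mean, same-numbered libraries correlated at -0.0572 to 0.0215, and only day 6 replicate 1 correlated best with its own number. These values cannot exclude a pairing, since the day 6 deviations largely follow the split of replicates 1 and 2 from the others.

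Signs changed in genes that did not pass the test with all 10 libraries. Leaving out 1 library gave -0.54 to 0.24 for Ifit1, -0.12 to 0.036 for Oasl2, -0.074 to 0.14 for Ifi35, -0.28 to 0.0097 for Tap1, -0.090 to 0.0027 for H2-K1, -0.14 to 0.022 for Ifitm3 and -0.0030 to 0.048 for Ifngr1. Ifngr1 was at -0.011 with library totals alone. Without day 6 replicates 1 and 2 the values were 0.066 for Oasl2, 0.56 for Ifit1, 0.019 for H2-K1, -0.036 for Ifngr1 and 0.14 for Ifitm3 (adjusted p = 0.0130), and without replicates 3, 4 and 5 they were -0.074 for Ifih1, -0.026 for Isg15 and -0.38 for Ifitm3 (adjusted p = 1.20e-06). The cause was not tested. Other scaling factors moved the median of all genes to -0.0047 to 0.038 (log2). It was 0.0913 with DESeq2 and 0.0903 with no filter, which also test more genes. Depth limits the 7 members below the filter and those near 1 CPM.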
